A study of Homo sapiens with 12 samples.

Results

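The 32 genes described here encode proteins of mitosis and the mitotic spindle, and they were followed in 2 human multiple myeloma cell lines treated with dihydroartemisinin (DHA). Members were taken from a list of gene symbols, which was drawn up with earlier results of these data known. All 32 were found among the 61806 Ensembl genes of the LP-1 table and among the 19130 symbols of the U266 table. Levels are FPKM, in which the authors divided mapped fragments by library size and transcript length before they deposited the tables. A gene was tested in a line where it reached 1 FPKM in at least 3 of the 6 libraries of that line. By that filter 31 members were tested in LP-1 and 30 in U266, with NUSAP1 tested in neither line and PRC1 in LP-1 alone.

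There were 4 groups of 3 libraries. LP-1 cells received either DHA, at the IC50, or as much of the solvent DMSO, in each case for 12 h, and U266 cells were treated likewise. Both lines are long established and come from malignant plasma cells, labelled as bone marrow in origin and wild type in genotype, and all were cultured in RPMI-1640 with fetal bovine serum. DHA is the active metabolite of the artemisinin antimalarials. No concentration was found in the sources used here, and nothing states whether replicates came from separate cultures. The p-values therefore cover the spread among these libraries alone, which may be technical. The title of the series concerns sensitization of myeloma cells to ferroptosis, and the members are not ferroptosis genes.

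Reads in genes numbered 14210000 to 17510000 with DHA and 13440000 to 15430000 with DMSO in LP-1, and 10320000 to 16390000 with DHA and 14490000 to 21820000 with DMSO in U266. Of 9 plasma cell markers, 8 averaged at least 1 FPKM in each line. Their summed level was 941.06 to 952.68 FPKM with DHA and 1017.01 to 1373.56 FPKM with DMSO in LP-1, and 736.15 to 802.19 FPKM with DHA and 1099.26 to 1120.59 FPKM with DMSO in U266. Gene by gene, limma called 2 of the 8 tested markers higher in LP-1 (IRF4, 1.66, and PRDM1, 0.68, on the log2 scale). It called 5 lower there (SDC1 -2.37, CD38 -0.95, POU2AF1 -0.88, MZB1 -0.68 and XBP1 -0.59). In U266, 0 of 8 were higher and 5 were lower (SDC1 -1.11, POU2AF1 -0.88, TNFRSF17 -0.68, XBP1 -0.33 and PRDM1 -0.19). Of all genes tested, 20.0% were higher and 20.2% lower in LP-1, and 21.1% and 19.6% in U266. The markers were named after their values were seen, and their part in the results below was not tested. Each list of 5 markers of B cells, of T and NK cells, of monocytes, of erythroid cells and of stroma summed to at most 5.29 FPKM in every LP-1 library. U266 DHA replicate 3 had 18399 genes above 0, against 14682 to 14992 in the other 5 U266 libraries, and higher summed levels than they had of the B cell (9.01 FPKM), T and NK cell (5.09 FPKM) and monocyte (8.72 FPKM) markers. Erythroid markers summed to 7.1 to 9.82 FPKM with DHA and 10.4 to 11.9 FPKM with DMSO in U266. Their 1 tested gene there, HBB, was called lower (-0.54, limma adjusted p = 0.000443). Stromal and endothelial markers summed to 5.15, 1.7 and 4.1 FPKM with DHA, replicate 1 the highest, and to 1.25, 1.02 and 1.45 FPKM with DMSO in U266. Their 1 tested gene in U266, COL1A1, was called higher (0.51, limma adjusted p = 0.0491). In LP-1 their 1 tested gene, PECAM1, was called lower (-1.23, limma adjusted p = 0.000912). The tables of the lines were made separately, so no level is compared between LP-1 and U266.

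**Figure D1:**
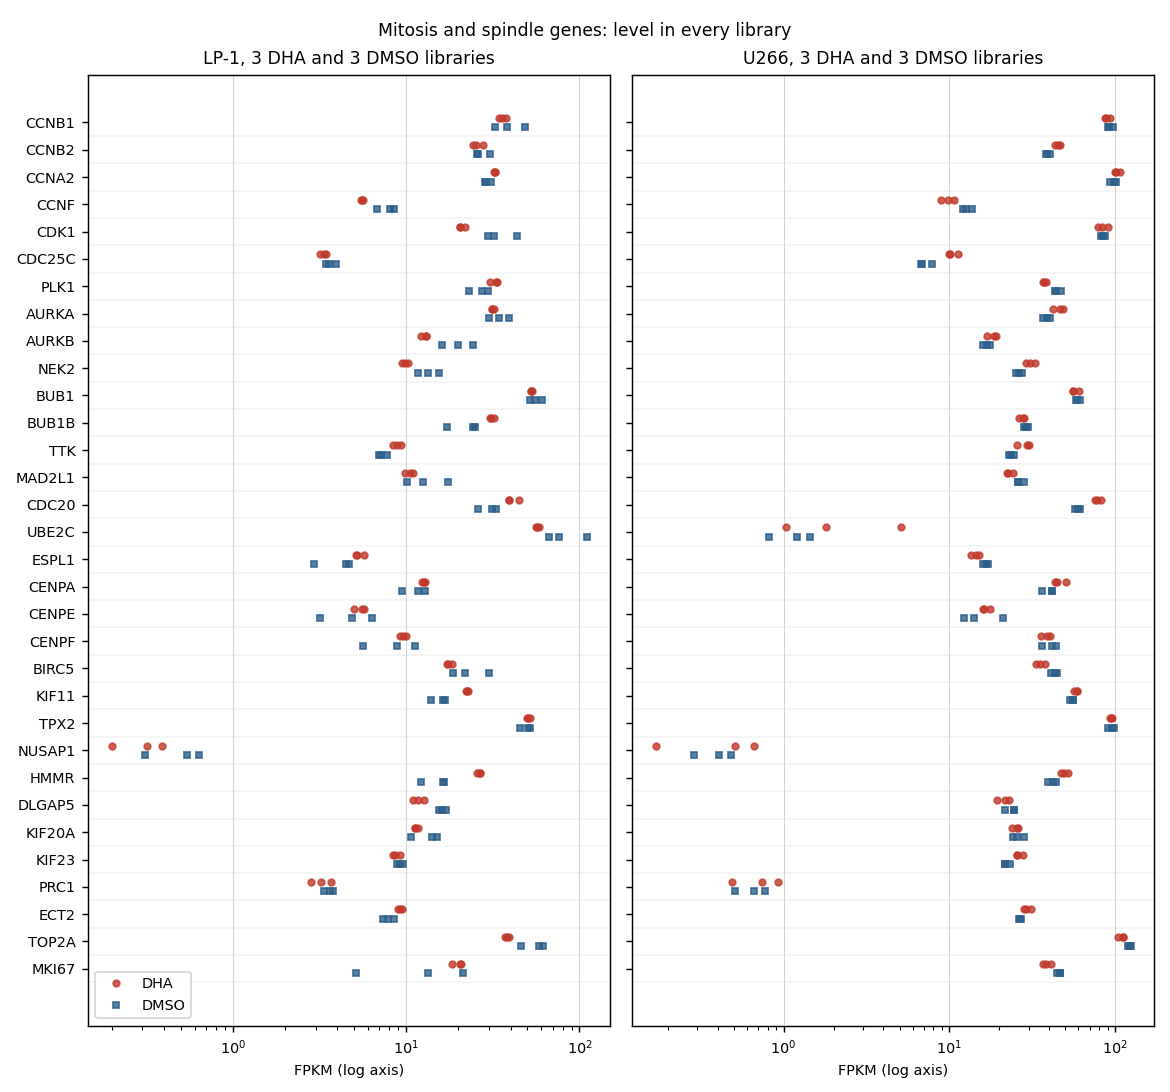
FPKM of each of the 32 members in every library on a log axis, LP-1 left and U266 right, with 3 DHA libraries as red circles above 3 DMSO libraries as blue squares. The LP-1 DMSO squares spread widely for several genes, MKI67 from 5.16 to 21.3 FPKM, while the DHA circles lie close together, and NUSAP1 is at or below 0.66 FPKM everywhere.

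Entry into mitosis is driven by CDK1 bound to cyclins A and B, helped by CDC25 phosphatases and by PLK1 and the Aurora kinases. The spindle assembly checkpoint (BUB1, BUB1B, TTK, MAD2L1) holds CDC20 away from the anaphase-promoting complex until every kinetochore is attached. The complex then marks cyclin B and securin for destruction, separase opens cohesin, and the central spindle and RhoA drive cell division. Most of these genes are transcribed late in the cell cycle. Their promoters are known for CCAAT boxes, bound by NF-Y, and for the cell cycle genes homology region (CHR), bound by the DREAM complex in resting cells and by B-MYB and FOXM1 complexes before mitosis. Because mitotic cells carry most of this RNA, the level in a bulk sample depends on how many cells are near mitosis as well as on RNA per cell, and fewer such cells and less RNA per cell cannot be told apart here.

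Promoter windows from RefSeq (GRCh38.p14), 250 bases before to 50 bases after an annotated start, were matched by symbol for 27 of the 32 members and gave 33 windows. The motif CCAAT, searched on both strands, was in 28 of 33 windows, or 84.8%, against 34.6% of all 35116 windows. At least 2 CCAAT matches were in 51.5% of member windows and 10.8% of all windows. The CHR letters TTTGAA, also searched on both strands, were in 69.7% of member windows and 15.2% of all windows, and TTTAAA, which reads the same on both strands, was in 30.3% and 12.2%. CCAAT together with either CHR form was in 69.7% of member windows and 9.27% of all windows. Each motif was searched on its own, so matches may share letters, and a match describes the letters and not binding. The windows of 5 members that differed in their response are printed, and likeness between them was not measured. Their CCAAT matches ran from 1 in PLK1 to 4 in CCNB2. CCNB1 had no TTTGAA, and CDC20 and the printed CDK1 window had no TTTAAA. Another CDK1 window, chr10:60778081-60778380, had 1 CCAAT, 1 TTTGAA and 1 TTTAAA and is not printed. CDC20 rose with DHA in both lines, CCNB2 rose in U266 and did not pass in LP-1, PLK1 fell in U266, CDK1 fell in LP-1, and CCNB1 passed in neither line. Capitals mark these motifs on either strand, and each sequence runs 5′ to 3′ along the gene's strand, which is the plus strand in all 5.
CDC20, chr1:43358731-43359030, plus strand: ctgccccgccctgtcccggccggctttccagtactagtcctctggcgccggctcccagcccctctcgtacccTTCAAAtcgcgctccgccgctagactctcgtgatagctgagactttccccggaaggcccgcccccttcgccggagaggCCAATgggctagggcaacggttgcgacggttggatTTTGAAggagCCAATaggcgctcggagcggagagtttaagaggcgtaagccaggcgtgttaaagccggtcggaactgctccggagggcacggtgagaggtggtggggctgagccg
CCNB2, chr15:59104896-59105195, plus strand: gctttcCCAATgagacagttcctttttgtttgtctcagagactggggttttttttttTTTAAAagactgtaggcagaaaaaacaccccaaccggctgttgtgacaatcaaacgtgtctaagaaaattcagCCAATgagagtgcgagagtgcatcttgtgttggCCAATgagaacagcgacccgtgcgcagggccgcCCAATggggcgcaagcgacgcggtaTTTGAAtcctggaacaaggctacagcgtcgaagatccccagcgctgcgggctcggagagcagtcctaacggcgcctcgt
PLK1, chr16:23678639-23678938, plus strand: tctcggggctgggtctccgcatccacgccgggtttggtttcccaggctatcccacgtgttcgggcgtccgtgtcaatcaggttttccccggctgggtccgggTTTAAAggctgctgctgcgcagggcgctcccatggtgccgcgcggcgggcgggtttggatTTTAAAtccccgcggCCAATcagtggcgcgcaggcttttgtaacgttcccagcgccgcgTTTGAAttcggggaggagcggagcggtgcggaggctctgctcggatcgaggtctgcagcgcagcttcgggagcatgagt
CDK1, chr10:60778228-60778527, plus strand: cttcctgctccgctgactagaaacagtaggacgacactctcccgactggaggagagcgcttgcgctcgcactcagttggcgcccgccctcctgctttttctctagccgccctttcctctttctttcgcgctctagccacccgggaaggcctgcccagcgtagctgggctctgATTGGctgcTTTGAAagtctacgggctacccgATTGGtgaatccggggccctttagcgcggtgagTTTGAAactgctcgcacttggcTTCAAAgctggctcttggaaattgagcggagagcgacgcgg
CCNB1, chr5:69166900-69167199, plus strand: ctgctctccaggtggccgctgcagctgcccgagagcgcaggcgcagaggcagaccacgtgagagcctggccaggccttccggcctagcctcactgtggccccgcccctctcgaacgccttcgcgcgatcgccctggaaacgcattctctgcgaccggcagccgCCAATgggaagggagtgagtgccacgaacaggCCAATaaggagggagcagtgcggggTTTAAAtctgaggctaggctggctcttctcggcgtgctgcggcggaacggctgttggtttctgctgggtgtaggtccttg

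The changes with DHA were small and went both ways. In LP-1, 5 of 31 tested members were higher with DHA (CDC20, BUB1B, TTK, KIF11, HMMR), 6 were lower (TOP2A, CDK1, AURKB, NEK2, DLGAP5, CCNF) and 20 did not pass at an adjusted p of 0.05 (limma on log2(FPKM + 1), adjusted over all genes tested). That is 35.5% of the tested members, against 40.2% of all 12514 genes tested in LP-1 (20.0% higher and 20.2% lower). In U266, 9 of 30 were higher (CCNB2, CDC20, AURKA, TTK, CENPA, KIF23, HMMR, CDC25C, NEK2), 7 were lower (MKI67, TOP2A, PLK1, BIRC5, CCNF, ESPL1, MAD2L1) and 14 did not pass. That is 53.3%, against 40.7% of all 10422 genes tested in U266 (21.1% higher and 19.6% lower). The median log2 change of the members was -0.09 in LP-1 and 0.03 in U266, beside 0.01 and 0.02 over all genes tested, and the U266 median was -0.08 with the TMM-style scaling described below. The called changes ran from -0.70 (CDK1) to 0.79 (HMMR) in LP-1, and from -0.36 (CCNF) to 0.49 (CDC25C) in U266. On this scale a difference understates the change of low genes. The DHA and DMSO libraries did not overlap for 18 of 31 tested members in LP-1, 9 with DHA above and 9 with DHA below, against 58.8% of all genes tested (30.2% above and 28.6% below). In U266 they did not overlap for 18 of 30, 11 above and 7 below, against 51.5% of all genes tested (27.6% above and 23.9% below).

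Of the 11 LP-1 calls, 7 were lost when 1 library was left out. KIF11, HMMR, CDK1 and DLGAP5 passed in every fit that left out 1 library. The other 7 did not pass once any 1 of the 3 DHA libraries was left out, with adjusted p from 0.0574 to 0.165, and each such fit kept 2 higher and 2 lower calls while 23.3% to 23.9% of all genes passed. Without DMSO replicate 1, 3 were higher and 2 lower, against 28.9% of all genes passing (14.4% higher and 14.5% lower). In U266 the 12 calls other than TOP2A, CENPA, ESPL1 and MAD2L1 passed in every fit that left out 1 library. Scaling by a trimmed mean of ratios (TMM-style) divided the levels of U266 DHA replicate 3 by 1.161. The other U266 libraries were divided by 0.951 to 0.986. That left CDC25C as the single higher call, beside 6 lower calls, when 10.7% of all genes passed as higher and 20.9% as lower. With the same scaling taken over genes that passed the filter, the factor of DHA replicate 3 was 1.029. Then 8 members were higher and 7 lower, with 39.6% of all genes passing (18.7% higher and 20.9% lower).

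**Figure D2:**
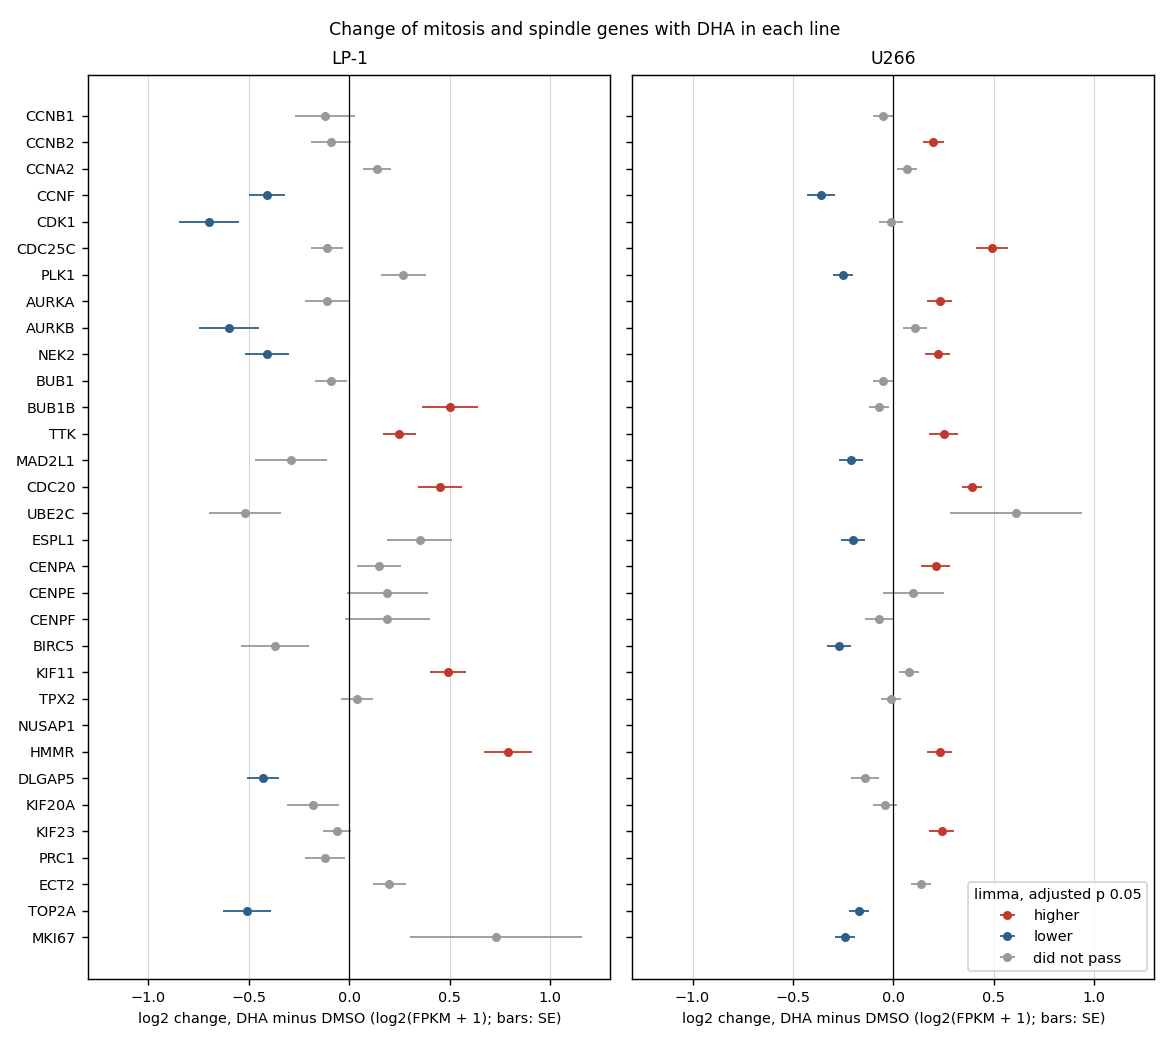
Log2 change, DHA minus DMSO, of each member on the log2(FPKM + 1) scale with its standard error as a bar, LP-1 left and U266 right, coloured by call. HMMR, CDC20 and TTK lie to the right and TOP2A and CCNF to the left in both lines, while NEK2 is to the left in LP-1 and to the right in U266.

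Both lines gave a higher call for 3 members and a lower call for 2. The share of all 8934 genes tested in both lines was 10.2% for higher in both, 6.06% for lower in both and 3.78% for calls in opposite directions, which held 1 member, NEK2. CDC20, TTK and HMMR were the 3 higher in both, and TOP2A and CCNF the 2 lower in both. Of the 30 members tested in both lines, 3 higher and 2 lower are close to those shares of all genes. With TMM-style scaling, the U266 calls of CDC20, TTK and HMMR were lost (limma adjusted p = 0.0893, 0.416 and 0.511). That of TOP2A was lost too (0.107), and that of CCNF was kept (0.00143). The control libraries of each line are its own, so the calls of the 2 lines share no sample.

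Among the cyclins and the CDK1 module, the clearest changes were in CDK1, CCNF and CDC25C. CDK1 (chromosome 10, 60778331 to 60794852 in GENCODE v29, GRCh38), the kinase that starts mitosis, had 20.48, 20.42 and 21.71 FPKM with DHA in LP-1, against 31.89, 29.62 and 43.37 FPKM with DMSO. All DHA libraries lay below all DMSO libraries (log2 change -0.70, SE 0.15, adjusted p = 0.0113). In U266 the same gene had 90.34, 83.13 and 78.26 FPKM with DHA and 83.85, 82.47 and 86.58 FPKM with DMSO, overlapping groups (-0.01, adjusted p = 0.919). CDC25C, a phosphatase that activates CDK1, rose in U266, where it had 10.08, 9.96 and 11.27 FPKM with DHA and 6.72, 7.89 and 6.79 FPKM with DMSO (0.49, SE 0.08, adjusted p = 0.000867). Its LP-1 levels were 3.35, 3.43 and 3.17 FPKM with DHA and 3.91, 3.45 and 3.58 FPKM with DMSO and did not pass (-0.11, adjusted p = 0.333).

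CCNF (chromosome 16, 2429394 to 2458854) encodes cyclin F, a ubiquitin ligase subunit that binds no CDK. It had 5.49, 5.54 and 5.64 FPKM with DHA and 8.08, 8.45 and 6.78 FPKM with DMSO in LP-1 (-0.41, SE 0.09, adjusted p = 0.0156, and 0.0661 without DHA replicate 1). U266 levels were 9.76, 8.92 and 10.58 FPKM with DHA and 12.14, 12.67 and 13.62 FPKM with DMSO (-0.36, SE 0.07, adjusted p = 0.0034). The groups did not overlap in either line. Of the cyclins that bind CDK1, CCNB2 (cyclin B2) was higher in U266 (0.20, SE 0.05, adjusted p = 0.00879, and 0.62 with TMM-style scaling). It had 46.64, 45.25 and 43.03 FPKM with DHA against 40.21, 38.15 and 38.67 FPKM with DMSO. CCNB1 (cyclin B1) was at 34.4 to 37.54 FPKM with DHA and 32.4 to 48.32 FPKM with DMSO in LP-1, and its groups overlapped in both lines. CCNA2 (cyclin A2) in LP-1 was at 32.05 to 32.7 FPKM with DHA, above 28.63 to 30.65 FPKM with DMSO, and did not pass with all libraries (0.14, adjusted p = 0.145).

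Of the 4 mitotic kinases outside the checkpoint, AURKB and NEK2 were lower in LP-1, and AURKA and NEK2 were higher and PLK1 lower in U266. AURKB, the catalytic subunit of the chromosomal passenger complex, had 12.18, 13.08 and 12.94 FPKM with DHA in LP-1, below 19.86, 16.05 and 24.22 FPKM with DMSO (-0.60, SE 0.15, adjusted p = 0.019, and 0.0734 without DHA replicate 1). In U266 its groups overlapped, at 16.86 to 19.14 FPKM with DHA and 15.87 to 17.58 FPKM with DMSO. NEK2 (chromosome 1, 211658657 to 211675630), a kinase that separates centrosomes, changed in opposite directions. In LP-1 it had 9.85, 9.41 and 10.19 FPKM with DHA and 13.27, 11.67 and 15.36 FPKM with DMSO (-0.41, SE 0.11, adjusted p = 0.0255, and 0.0985 without DHA replicate 2). The U266 levels were 32.92, 28.95 and 30.75 FPKM with DHA and 27.36, 25.28 and 26.24 FPKM with DMSO (0.22, SE 0.06, adjusted p = 0.0125, and 0.498 with TMM-style scaling), so that DHA libraries lay below the DMSO range in LP-1 and above it in U266. AURKA, the centrosomal Aurora kinase, was higher in U266, with 48.06, 46.35 and 42.19 FPKM with DHA and 40.47, 36.82 and 38.71 FPKM with DMSO (0.23, SE 0.06, adjusted p = 0.0117, and 0.51 with TMM-style scaling), and its difference between the lines did not pass (0.34, adjusted p = 0.0528). PLK1 (chromosome 16, 23677656 to 23690367), which acts from mitotic entry to cytokinesis, was lower in U266, at 37.15, 38.23 and 36.8 FPKM with DHA and 43.67, 43.24 and 47.2 FPKM with DMSO (-0.25, SE 0.05, adjusted p = 0.00283). Its LP-1 DHA libraries, at 33.56, 32.99 and 30.44 FPKM, lay above the DMSO libraries, at 27.28, 29.69 and 23.14 FPKM, without passing (0.27, adjusted p = 0.0852).

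Of the checkpoint genes, TTK (chromosome 6, 80003887 to 80042527), the kinase that starts checkpoint signalling, was higher in both lines. It had 8.84, 8.42 and 9.37 FPKM with DHA and 6.92, 7.78 and 7.18 FPKM with DMSO in LP-1 (0.25, SE 0.08, adjusted p = 0.0464, and 0.165 without DHA replicate 3). Its U266 levels were 30.1, 29.26 and 25.61 FPKM with DHA and 24.53, 23.42 and 22.85 FPKM with DMSO (0.25, SE 0.07, adjusted p = 0.0119, and 0.416 with TMM-style scaling). The groups did not overlap in either line, though the LP-1 call stood close to the threshold. BUB1B, the BubR1 subunit of the mitotic checkpoint complex, was higher in LP-1, with 30.63, 30.93 and 32.28 FPKM with DHA against 24.26, 24.96 and 17.24 FPKM with DMSO (0.50, SE 0.14, adjusted p = 0.0351, and 0.11 without DHA replicate 3). Its U266 groups overlapped, at 26.24 to 28.15 FPKM with DHA and 28.02 to 29.59 FPKM with DMSO. MAD2L1, which encodes the checkpoint protein Mad2, was lower in U266, at 24.26, 22.63 and 22.24 FPKM with DHA and 25.77, 28.35 and 26.07 FPKM with DMSO (-0.21, SE 0.06, adjusted p = 0.0165, and 0.0658 without DMSO replicate 2). BUB1, the kinetochore kinase that recruits BUB1B, stayed within overlapping groups in both lines, at 52.4 to 52.98 FPKM with DHA and 51.93 to 61.08 FPKM with DMSO in LP-1.

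CDC20 (chromosome 1, 43358955 to 43363203), the target of the checkpoint and the activator of the anaphase-promoting complex, was higher in both lines. In LP-1 it had 39.23, 44.81 and 39.14 FPKM with DHA and 32.85, 25.94 and 31.07 FPKM with DMSO (0.45, SE 0.11, adjusted p = 0.0218, and 0.0907 without DHA replicate 2). In U266 it had 82.4, 75.04 and 77.39 FPKM with DHA and 59.66, 61.08 and 57.2 FPKM with DMSO (0.39, SE 0.05, adjusted p = 0.00019, and 0.0893 with TMM-style scaling). Every DHA library exceeded every DMSO library of its line. UBE2C, the ubiquitin-conjugating enzyme that serves the same complex, had 56.34, 56.77 and 58 FPKM with DHA in LP-1, below 75.75, 67.06 and 109.91 FPKM with DMSO, and did not pass with all libraries (-0.52, SE 0.18, adjusted p = 0.0588). In U266 it was near the filter, at 1.81, 1.03 and 5.12 FPKM with DHA and 0.82, 1.21 and 1.45 FPKM with DMSO, or 19 to 108 reads. The value of 5.12 FPKM was that of DHA replicate 3, the library with the larger number of genes above 0. ESPL1, which encodes separase, was lower in U266, at 14.97, 14.48 and 13.5 FPKM with DHA and 16.63, 15.94 and 17.12 FPKM with DMSO (-0.20, SE 0.06, adjusted p = 0.023, and 0.091 without DMSO replicate 3). In LP-1 its DHA libraries, at 5.15 to 5.74 FPKM, lay above its DMSO libraries, at 2.92 to 4.7 FPKM, without passing (0.35, adjusted p = 0.116).

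At the centromere, 0 of the 4 members passed in LP-1 (limma), 0 of them also at an unadjusted p of 0.05, against 40.2% of all genes called. With 4 genes and standard errors of 0.11 to 0.21, that count does not show that they were unchanged. CENPA, the histone H3 variant that marks centromeres, was higher in U266, with 50.25, 43.53 and 44.46 FPKM with DHA and 41.43, 36.04 and 41.27 FPKM with DMSO (0.21, SE 0.07, adjusted p = 0.0342). That call was lost in 2 fits that left out a library, DHA replicate 1 (adjusted p = 0.117) or DMSO replicate 2 (0.12), and with TMM-style scaling (0.569). BIRC5, which encodes survivin, the passenger complex subunit that docks at centromeres, was lower in U266, at 37.95, 35.34 and 33.29 FPKM with DHA and 41.15, 44.5 and 43.6 FPKM with DMSO (-0.27, SE 0.06, adjusted p = 0.00406). In LP-1 it was at 17.35, 18.34 and 17.26 FPKM with DHA, below 21.89, 18.65 and 29.9 FPKM with DMSO, without passing (-0.37, SE 0.17, adjusted p = 0.12). The long kinetochore proteins CENPE, a kinesin, and CENPF overlapped between groups in both lines. CENPE had 15.84, 17.58 and 16.19 FPKM with DHA in U266 and 21.06, 14.05 and 12.29 FPKM with DMSO (0.10, adjusted p = 0.65), and without DMSO replicate 1 it passed (0.31, adjusted p = 0.016).

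Among the motors and microtubule proteins of the spindle, HMMR and KIF11 rose in LP-1 in every fit that left out 1 library. HMMR (chromosome 5, 163460203 to 163491945), a spindle protein that is also a hyaluronan receptor, had 25.66, 26.82 and 26.81 FPKM with DHA in LP-1 and 16.45, 16.26 and 12.19 FPKM with DMSO (0.79, SE 0.12, adjusted p = 0.00383). In U266 it had 51.65, 48.98 and 47.03 FPKM with DHA and 44.04, 39.3 and 42.39 FPKM with DMSO (0.23, SE 0.06, adjusted p = 0.0095, and 0.511 with TMM-style scaling). KIF11 (chromosome 10, 92593286 to 92655395), the kinesin that pushes spindle poles apart, had 22.38, 22.1 and 22.58 FPKM with DHA in LP-1 and 16.63, 16.4 and 13.88 FPKM with DMSO (0.49, SE 0.09, adjusted p = 0.00655). In U266 its DHA libraries, at 56.05 to 59.18 FPKM, lay just above its DMSO libraries, at 53.42 to 55.9 FPKM, without passing (0.08, adjusted p = 0.185). DLGAP5 (HURP), which stabilizes spindle fibres at kinetochores, was lower in LP-1, at 10.91, 11.64 and 12.62 FPKM with DHA and 15.43, 16.87 and 16.13 FPKM with DMSO (-0.43, SE 0.08, adjusted p = 0.00814). Its U266 groups overlapped, at 19.3 to 22.95 FPKM with DHA and 21.67 to 24.63 FPKM with DMSO. TPX2, the microtubule nucleator and AURKA activator, had a log2 change of 0.04 in LP-1 (SE 0.08) and -0.01 in U266 (SE 0.05), with overlapping groups in both.

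In the central spindle, KIF23, the kinesin of the centralspindlin complex, was higher in U266 (0.24, SE 0.06, adjusted p = 0.00645, and 0.425 with TMM-style scaling). It had 27.7, 25.5 and 25.64 FPKM with DHA and 21.63, 23.17 and 21.51 FPKM with DMSO. In LP-1 it was at 8.4 to 9.17 FPKM with DHA and 8.79 to 9.52 FPKM with DMSO and did not pass (-0.06, adjusted p = 0.512). ECT2, the exchange factor that activates RhoA at the division site, lay above the DMSO range in every DHA library of both lines and passed in neither. Its LP-1 levels were 9.23, 9.49 and 8.91 FPKM with DHA and 7.85, 8.45 and 7.32 FPKM with DMSO (0.20, adjusted p = 0.0825), and its U266 levels 28.97, 31.18 and 28.16 FPKM with DHA and 27.13, 26.54 and 26.26 FPKM with DMSO (0.14, adjusted p = 0.0605). KIF20A, a kinesin that carries passenger proteins to the midzone, overlapped between groups in both lines. It had 11.73, 11.26 and 11.29 FPKM with DHA and 15.01, 13.99 and 10.62 FPKM with DMSO in LP-1 (-0.18, adjusted p = 0.299).

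TOP2A (chromosome 17, 40388516 to 40417950), the topoisomerase that untangles chromosomes, was the lower member in both lines besides CCNF. In LP-1 it had 37.07, 38.08 and 39.43 FPKM with DHA and 58.1, 61.55 and 45.99 FPKM with DMSO (-0.51, SE 0.12, adjusted p = 0.0173, and 0.0723 without DHA replicate 1). Levels in U266 were 111.83, 111.15 and 103.35 FPKM with DHA and 123.82, 119.7 and 122.71 FPKM with DMSO (-0.17, SE 0.05, adjusted p = 0.0192, and 0.0706 without DMSO replicate 3). DHA libraries lay below DMSO libraries in both lines. MKI67 (chromosome 10, 128096659 to 128126385), the Ki-67 protein that coats mitotic chromosomes, was lower in U266, at 36.9, 41.14 and 38.14 FPKM with DHA and 46.22, 44.53 and 46.73 FPKM with DMSO (-0.24, SE 0.05, adjusted p = 0.00496). In LP-1 it had 20.37, 20.72 and 18.44 FPKM with DHA and 13.28, 21.3 and 5.16 FPKM with DMSO (0.73, SE 0.43, adjusted p = 0.216). The LP-1 controls spread widely, and replicates 2 and 3 enclosed all 3 DHA values.

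That spread of the LP-1 controls touches many members. The median SD of the members on the log2(FPKM + 1) scale was 0.048 among DHA and 0.185 among DMSO libraries in LP-1 (0.065 and 0.197 over all genes tested), and 0.072 among DHA and 0.057 among DMSO libraries in U266. DMSO replicate 3 stood below the mean of replicates 1 and 2 by a log2 difference of -1.53 for MKI67, -0.72 for CENPF, -0.65 for CENPE and -0.52 for ESPL1, members with long transcripts. It stood above that mean by 0.62 for UBE2C, 0.59 for MAD2L1, 0.54 for BIRC5 and 0.48 for CDK1. Over the 31 tested members, the Spearman correlation of exon length with the deviation of a control library from the mean of the other pair was -0.70 for DMSO replicate 3, 0.73 for DMSO replicate 2 and 0.40 for DMSO replicate 1. Over 12222 genes with a length it was -0.41, 0.40 and 0.29, so the relation to length is not particular to the members. These are descriptions across genes of the same libraries, which are not independent replicates.

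Without DMSO replicate 2, the LP-1 counts were 8 higher and 9 lower members with a median log2 change of -0.06, when 45.5% of all genes passed (23.0% higher and 22.5% lower). MKI67 (1.15, adjusted p = 0.04), PLK1 (0.35, 0.038) and ECT2 (0.25, 0.0497) joined the higher calls, and BIRC5 (-0.51, 0.0314), UBE2C (-0.67, 0.0229) and MAD2L1 (-0.46, 0.0492) the lower ones. Without DMSO replicate 3, the counts were 6 higher and 8 lower with a median of -0.02, when 56.5% of all genes passed (28.0% higher and 28.6% lower). CCNA2 (0.17, adjusted p = 0.0153) joined the higher calls, and KIF20A (-0.32, 0.00355) and UBE2C (-0.32, 0.00615) the lower ones. All 11 calls made with the 6 libraries passed without DMSO replicate 2 and also without DMSO replicate 3. In turn, the log2 change without replicate 2 and then without replicate 3 was 0.85 and 0.66 for HMMR, 0.53 and 0.42 for KIF11, and 0.59 and 0.33 for BUB1B. It was 0.35 and 0.48 for CDC20, and 0.29 and 0.24 for TTK. Among the lower calls it was -0.81 and -0.54 for CDK1, -0.74 and -0.46 for AURKB, and -0.43 and -0.63 for TOP2A. For NEK2 it was -0.50 and -0.31, for DLGAP5 -0.40 and -0.43, and for CCNF -0.36 and -0.50. The change of MKI67 was 0.22 (adjusted p = 0.33) without replicate 3. CENPE, CENPF, TPX2 and CCNB1 changed sign without it, to -0.02, -0.05, -0.02 and 0.03, and none of the 4 passed in either fit.

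**Figure D3:**
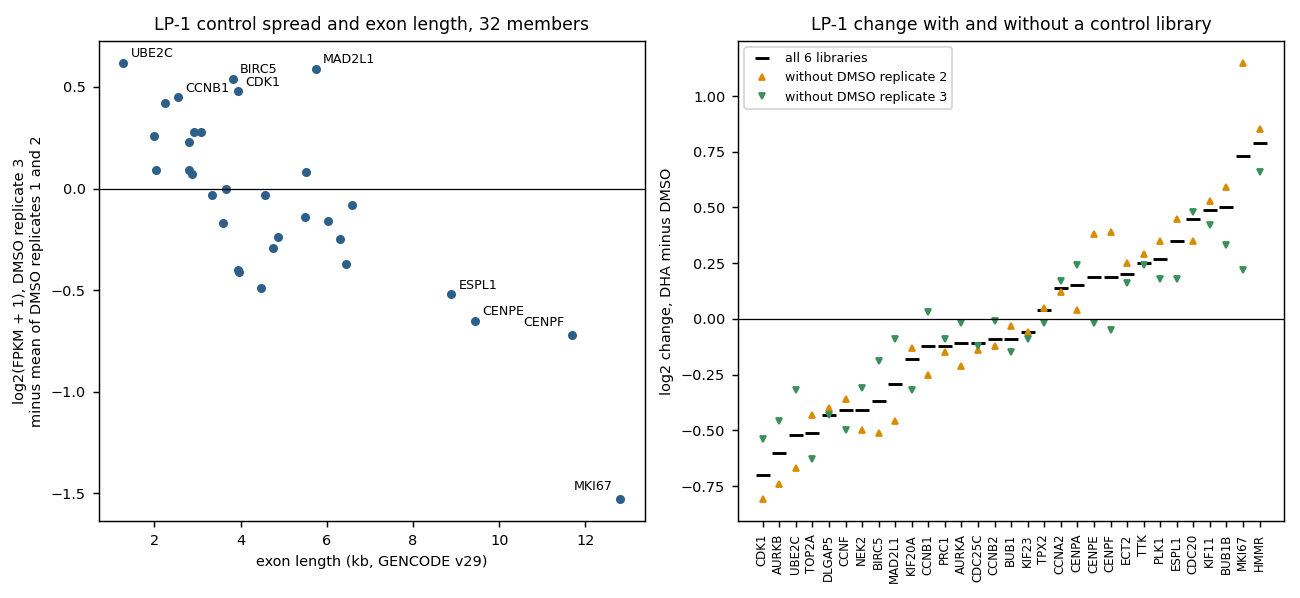
Left, for the 32 members in LP-1, the log2(FPKM + 1) of DMSO replicate 3 minus the mean of DMSO replicates 1 and 2 against exon length in kilobases, which falls to -1.53 at MKI67. Right, the log2 change with DHA of the 31 tested members with all 6 libraries (black), without DMSO replicate 2 (orange) and without DMSO replicate 3 (green), which differ most for MKI67, at 0.73, 1.15 and 0.22.

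The difference between the lines was tested as an interaction, the log2 change in U266 minus that in LP-1. Of 30 members tested in both lines, 5 were positive and 5 negative, or 33.3%, against 34.5% of all 8932 genes (16.0% positive and 18.5% negative). The positive ones were AURKB (0.71, SE 0.16, adjusted p = 0.00642), CDK1 (0.69, SE 0.16, adjusted p = 0.00702), NEK2 (0.63, SE 0.13, adjusted p = 0.00283), CDC25C (0.60, SE 0.12, adjusted p = 0.00224) and KIF23 (0.30, SE 0.09, adjusted p = 0.0248). AURKB and CDK1 fell in LP-1 and did not pass in U266, NEK2 fell in LP-1 and rose in U266, and CDC25C and KIF23 rose in U266 and did not pass in LP-1. The negative ones were BUB1B (-0.57, SE 0.16, adjusted p = 0.0151), HMMR (-0.56, SE 0.14, adjusted p = 0.00917), ESPL1 (-0.55, SE 0.17, adjusted p = 0.0265), PLK1 (-0.52, SE 0.12, adjusted p = 0.00627) and KIF11 (-0.41, SE 0.10, adjusted p = 0.0085). HMMR rose in both lines and rose more in LP-1. CDC20 and TTK rose in both, and their differences of -0.05 (SE 0.13) and 0.00 (SE 0.11) did not pass. KIF23 and ESPL1 lost the call in several fits that left out 1 library, with adjusted p of up to 0.0649 and 0.0671. TMM-style scaling moved the median difference of all genes from -0.017 to -0.146. It gave 3 positive and 6 negative members, when 869 of all 8932 genes were positive and 2185 negative. CDK1 was then at 0.55 (adjusted p = 0.064) and KIF23 at 0.17 (adjusted p = 0.377).

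Some members were at low levels or share exons with another gene. NUSAP1, a microtubule bundling protein, was at 0.20, 0.32 and 0.39 FPKM with DHA and 0.64, 0.31 and 0.54 FPKM with DMSO in LP-1, which is 9 to 25 reads, and at 0.17 to 0.66 FPKM in U266. In GENCODE v29, 62.2% of its exon bases are shared with AC087721.2 on the same strand, which was listed at 0 in every LP-1 library. PRC1, the bundler of the central spindle, was at 2.83, 3.22 and 3.68 FPKM with DHA and 3.64, 3.35 and 3.76 FPKM with DMSO in LP-1 (-0.12, adjusted p = 0.398). In U266 it was at 0.49 to 0.93 FPKM with DHA and 0.51 to 0.77 FPKM with DMSO, below the filter. It shares 57.6% of its exon bases with AC068831.7, which held 1.09 to 2.02 FPKM in LP-1. How the authors counted reads over shared exons was not stated in the sources used here, so the levels of both genes are uncertain. Exons of 10 more members overlap another gene over 0.8% to 11.6% of their length, the most in PLK1, BUB1B and CCNA2, and whether counting used strand is not given either.

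Other genes of cell division were taken from lists of known complexes. In LP-1 the higher calls outnumbered the lower ones in each of the 9 lists given here, and in U266 they did in 4. These counts are read against the 20.0% higher and 20.2% lower of all genes in LP-1, and 21.1% and 19.6% in U266. The higher share in LP-1 was within 3 percentage points of that or below it for condensin, for passenger and spindle genes, for mitotic entry and for the anaphase-promoting complex. In U266 TMM-style scaling left 0 to 2 higher calls in each list, when 10.7% of all genes were higher. Where a list had no lower call by limma in LP-1, none of its genes was lower at an unadjusted p of 0.05 either. Centrosome duplication genes gave 6 higher and no lower calls of 10 in LP-1 and 2 higher of 10 in U266. When 1 DHA library or DMSO replicate 1 was left out, 2 to 4 were higher in LP-1, against 10.9% to 14.4% of all genes. CENPJ, which sets centriole length, had 30.14, 28.69 and 29.07 FPKM with DHA and 15.42, 19.04 and 12.95 FPKM with DMSO in LP-1 (0.87, SE 0.14, adjusted p = 0.00399). CENPJ was higher in U266 too (0.67, SE 0.06, adjusted p = 9.52e-06). The outer kinetochore and other checkpoint genes gave 7 higher and 2 lower of 18 in LP-1, and 3 higher and 4 lower of 18 in U266. SKA1, which couples kinetochores to microtubules, rose in both lines (1.28, adjusted p = 0.00025 in LP-1, and 0.51, adjusted p = 1.53e-05 in U266), while the NDC80 complex subunit SPC24 fell in both (-0.82, adjusted p = 0.0112, and -0.33, adjusted p = 0.000264). Inner centromere and CENPA loading genes gave 5 higher and no lower of 14 in LP-1, and 5 higher and 1 lower of 15 in U266, with CENPL higher in both (0.75, adjusted p = 0.0047, and 0.33, adjusted p = 0.00328, or 0.108 with TMM-style scaling).

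Condensin and chromokinesin genes gave 2 higher of 10 in LP-1, among them SMC2 (0.60, adjusted p = 0.00265), and 3 lower of 10 in U266, among them NCAPH (-0.35, adjusted p = 0.000583). NCAPG was higher in LP-1 (0.24, adjusted p = 0.0379) and lower in U266 (-0.17, adjusted p = 0.0171). Its LP-1 call was lost without any 1 DHA library or DMSO replicate 1 (adjusted p from 0.105 to 0.145), and its U266 call without DMSO replicate 3 (0.0752) and with TMM-style scaling (0.0695). Cohesin and its protectors gave 4 higher and 1 lower of 12 in LP-1, and 4 higher and 2 lower of 12 in U266. The lower gene in both was PTTG1, securin, the inhibitor of separase, with 15.1, 14.06 and 13.68 FPKM with DHA and 29.05, 28.71 and 49.38 FPKM with DMSO in LP-1 (-1.22, SE 0.21, adjusted p = 0.00564). In U266 it had 57.15, 49.37 and 46.92 FPKM with DHA and 69.69, 70.23 and 71.92 FPKM with DMSO (-0.46, SE 0.07, adjusted p = 0.00042). Securin thus stood below its DMSO range in all 6 DHA libraries. SGO1, the protector of centromeric cohesin, rose in both (0.52, adjusted p = 0.00245, and 0.33, adjusted p = 0.00422, or 0.129 with TMM-style scaling).

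Other passenger, spindle and cytokinesis genes gave 6 higher and 2 lower of 27 in LP-1, and 6 higher and 3 lower of 27 in U266. The microtubule depolymerizing kinesin KIF2C rose in both lines (0.47, SE 0.08, in LP-1 and 0.48, SE 0.05, in U266), as did the spindle protein CKAP2L (0.43, adjusted p = 0.0323, or up to 0.103 without 1 library, and 0.71, adjusted p = 5.85e-06), and stathmin (STMN1), which destabilizes microtubules, fell in both (-0.79, adjusted p = 0.0107, and -0.33, adjusted p = 0.000267). INCENP and CDCA8, partners of AURKB and BIRC5 in the passenger complex, passed in neither line. Subunits and regulators of the anaphase-promoting complex gave 1 higher of 17 in LP-1, CDC27 (0.53, adjusted p = 0.0111, and 0.0519 without DHA replicate 3), and 1 higher and 5 lower of 17 in U266, with ANAPC7 at -0.45 (adjusted p = 0.000328) and ANAPC1 at -0.32 (adjusted p = 0.00154). FZR1, the other activator besides CDC20, had a log2 change of 0.05 in LP-1 (SE 0.11) and 0.00 in U266 (SE 0.07). Other regulators of mitotic entry gave 3 higher of 14 in LP-1, and 3 higher and 4 lower of 14 in U266. CDC25A, a phosphatase that activates CDKs in S phase and at mitotic entry, rose in LP-1 (0.74, SE 0.07, adjusted p = 0.000734) and fell in U266 (-0.50, SE 0.08, adjusted p = 0.000519).

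The list of DREAM complex, B-MYB and FOXM1 genes also holds RB1 and E2F family genes. It has no NF-Y subunit, so it is not a list of the factors that bind the motifs marked above. Its genes gave 6 higher and 3 lower calls of 14 in LP-1 (2 to 4 higher when 1 DHA library or DMSO replicate 1 was left out). In those fits 10.9% to 14.4% of all genes were higher. In U266 the list gave 3 higher and 5 lower of 13. LIN54, the DREAM subunit that contacts the CHR, had 14.06, 13.96 and 14.39 FPKM with DHA and 5.36, 5.58 and 4.26 FPKM with DMSO in LP-1 (1.33, SE 0.10, adjusted p = 0.000359). Levels in U266 were 13.14, 13.18 and 13.31 FPKM with DHA and 8.89, 8.53 and 8.44 FPKM with DMSO (0.56, SE 0.06, adjusted p = 4.42e-05). LIN9, a subunit of the same complex, was called higher in both lines. The call was lost in LP-1 without any 1 DHA library or DMSO replicate 1 (0.30, adjusted p = 0.0174, or 0.0529 to 0.086). In U266 it was lost without DHA replicate 2 (0.0616), without DMSO replicate 2 (0.0729) and with TMM-style scaling (0.387), where it was 0.23 (adjusted p = 0.0183) with all libraries as deposited. LIN54 was higher in all DHA libraries of both lines, as was LIN52 (0.58, adjusted p = 0.00186, and 0.61, adjusted p = 0.000264). MYBL2, which encodes B-MYB, was lower in U266, at 438.54, 433.07 and 417.24 FPKM with DHA and 605.76, 632.56 and 604.81 FPKM with DMSO (-0.52, SE 0.05, adjusted p = 4.36e-05), and did not pass in LP-1 (0.23, adjusted p = 0.113). FOXM1 passed in neither line, at 11.52 to 12.75 FPKM with DHA and 5.75 to 12.19 FPKM with DMSO in LP-1. E2F4, the repressor E2F of the DREAM complex, was higher in LP-1 (0.35, adjusted p = 0.015, but 0.0804 without DHA replicate 1 and 0.0675 without DHA replicate 2) and lower in U266 (-0.32, adjusted p = 0.00156).

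**Figure D4:**
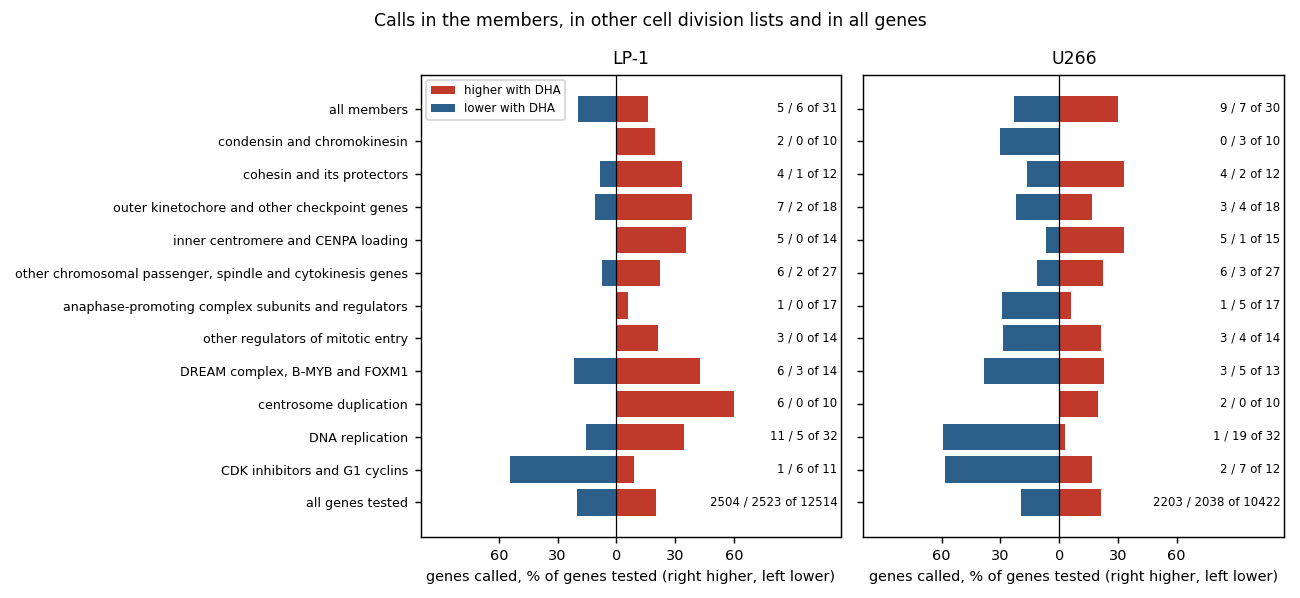
Share of tested genes called higher (red, right) and lower (blue, left) with DHA in LP-1 and U266, for the members, 11 other cell division lists and all genes tested, with the counts higher / lower of tested at the right. Centrosome duplication has 6 of 10 higher in LP-1, and DNA replication has 19 of 32 lower in U266.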

How the data were processed

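RNA-seq libraries of LP-1 and U266 cells, 3 with DHA and 3 with DMSO in each line, were grouped by their titles. The authors deposited FPKM values in 1 table per line, per the file headers, and no column was left unused. The U266 columns are named NC and DH, and these were taken as DMSO and DHA, numbered as in the titles; no label states it outright, and the sign of every U266 change rests on it. Per the labels' protocols, the RNA came from an RNeasy extraction and a SMARTER mRNA kit made the libraries. Of genome builds, the submitters' processing notes name GRCm38 and mm10, which are mouse builds, although both tables hold human genes. Aligner, counter and annotation were not given in the sources used here. Of the 61806 LP-1 genes, 61757 were matched to a symbol, and of the 19130 U266 symbols 19080 were matched.

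Members and lists were chosen with earlier results of these data known, and support nothing by themselves. The scale was log2(FPKM + 1), and a gene was tested where at least 3 of 6 libraries reached 1 FPKM. Each line was fitted alone with limma 3.58.1 in R 4.3.3 (lmFit, then eBayes with trend), two-sided, under Benjamini-Hochberg adjustment over all genes tested and a threshold of 0.05. The difference between lines was the interaction contrast over all 12 libraries. The fit was tested on simulated data. Named genes were the 32 members, the 2 called genes with the largest change per other list and line, and 18 fixed regulators. Depth was taken from the steps of low FPKM values and GENCODE v29 exon lengths; 76.3 to 80.6% of values up to 30 reads in LP-1 and 93.9 to 94.6% of those up to 100 reads in U266 fell within 0.1 read of whole counts. For a transcript of 2 kb, 3 reads were 0.0857 to 0.112 FPKM in LP-1 and 0.0687 to 0.145 FPKM in U266, a floor that covers counting error only. The U266 reads came mostly in even counts in 5 libraries (77.3 to 79.3% of values up to 20 reads) and in 52.2% in DHA replicate 3. Alternatives were no filter, a filter on means under 5 FPKM, a pseudocount of 0.1, quantile normalization, scaling by a TMM-style factor (trims of 30% and 5%), removal of an exon length trend, no variance trend, a replicate block, and leaving out each library. TMM-style scaling over kept genes was added after seeing the data.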

Additional observations from a re-analysis of the deposited data

Results flagged for a closer look

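The following genes changed differently in the 2 lines by the test of the difference itself (limma interaction, adjusted over 8932 genes). Values are the log2 change with DHA in U266 minus that in LP-1, so a positive value means a higher change in U266. Of all 8932 genes, 34.5% passed this test, and 33.3% of the members did. The 38 differences given here were picked because they passed this test, so the number that stay is no independent support. Of these 38, 29 passed under every alternative run for the gene. The other 9 were lost under at least 1, and their highest adjusted p was 0.064 for CDK1, 0.377 for KIF23 and 0.191 for CDKN1B, each with TMM-style scaling. It was 0.0908 for PTTG1 with that scaling, and up to 0.061 without 1 library. When 1 library was left out it reached 0.0671 for ESPL1, 0.0991 for NCAPH, 0.0853 for CENPL, 0.0549 for PSRC1 and 0.109 for STIL.

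Among the members the difference was positive for AURKB (0.71), CDK1 (0.69), NEK2 (0.63), CDC25C (0.60) and KIF23 (0.30), and negative for BUB1B (-0.57), HMMR (-0.56), ESPL1 (-0.55), PLK1 (-0.52) and KIF11 (-0.41). NEK2 is the member that was called in opposite directions in the lines.

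Among the regulators of mitotic genes it was negative for MYBL2 (-0.74), LIN54 (-0.76), E2F4 (-0.67), RBL1 (-0.81) and TFDP1 (-0.54). B-MYB fell in U266, while LIN54 rose in both lines and by more in LP-1. Securin, PTTG1 (0.76), fell in both lines, and its difference is among those lost. The CDK inhibitors CDKN1A (0.92) and CDKN1B (0.43) and the kinase CDK2 (0.66) had positive differences. Chromosome structure genes with negative differences were SMC2 (-0.71), NCAPG (-0.41), NCAPH (-0.37), NCAPH2 (-0.63) and STAG1 (-0.91). Kinetochore and centrosome genes with negative differences were SKA1 (-0.77), CENPL (-0.42), CENPN (-0.51) and STIL (-0.41), while the spindle gene PSRC1 (1.12) had a positive one. In U266 PSRC1 was at 3.39, 4.14 and 8.86 FPKM with DHA, the last in DHA replicate 3, and at 3.74, 3.09 and 4.06 FPKM with DMSO.

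The anaphase-promoting complex subunits CDC27 (-0.45), ANAPC7 (-0.60) and ANAPC1 (-0.89) and the phosphatase CDC25A (-1.24) had negative differences. So did the replication genes CDC6 (-1.14), MCM6 (-1.12), MCM2 (-0.95), MCM4 (-0.85) and FEN1 (-0.73). No cause of these differences was tested, and groups of 3 libraries were not searched for outlying ones.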

How the results depend on the processing

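Beside the settings already given, the LP-1 count of higher members was 3 with no filter, when 2137 of all 31244 genes were higher. With the exon length trend removed the LP-1 median was 0, and 7 members were higher and 6 lower. In that fit 2806 of all 12270 genes were higher and 2703 lower. The U266 median was -0.01 over genes averaging 5 FPKM or more, 0.07 after quantile normalization and -0.08 after TMM-style scaling. TMM-style scaling gave 1 higher call in U266, and 3 positive differences between the lines, where quantile normalization gave 8. With 1 library left out, the LP-1 counts ran from 2 to 8 higher and from 2 to 9 lower. The LP-1 median then ran from -0.08 to -0.02 and the positive differences from 4 to 10. Over all genes in those fits, 10.9% to 28.0% were higher and 12.3% to 28.6% lower in LP-1. Positive differences ran from 1078 to 1998 of all 8932 genes. For the members, the U266 counts and the negative differences kept within 1.5 times of their values, other than the U266 higher count under TMM-style scaling. The causes were not tested.

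With a replicate block, LP-1 gave 2 higher and 6 lower members, U266 9 and 7, and the differences 5 and 5, with medians of -0.09 and 0.03. Of all genes under the block, 2267 were higher and 2292 lower of 12514 in LP-1, and 2016 and 1875 of 10422 in U266. The difference was positive for 1341 and negative for 1542 of 8932 genes. Of the 5 positive differences of the members, KIF23 lost its call under the block (adjusted p 0.0596) and UBE2C gained one (0.0288). Deviations of same-numbered DHA and DMSO libraries correlated at 0.074, 0.024 and 0.183 in LP-1 and -0.039, -0.083 and -0.025 in U266. Among LP-1 libraries with different numbers the lowest correlation was -0.173 and the highest 0.162. Among such U266 libraries they were -0.023 and 0.073. With groups of 3 libraries these values cannot decide whether the numbers pair the samples.

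The log2 changes below changed sign, or reached 0, under an alternative, and no value on the other side of 0 from the reported one passed (lowest adjusted p 0.232). With the exon length trend removed they were in LP-1 CCNB1 0.03, CCNB2 0.04, CENPF -0.05, CDKN1B 0.10, FZR1 -0.01, WEE1 -0.15, CDC25B 0.01, MCM4 0.00, and in U266 CDCA8 0.01, and for the difference between lines CCNB1 -0.06, CENPA -0.09, CENPE 0.04. With quantile normalization they were in LP-1 CDKN1B 0.01, FZR1 -0.01, NCAPH -0.04, and in U266 CCNB1 0.02, CDK1 0.07, BUB1 0.06, TPX2 0.06, INCENP 0.01, CDCA8 0.08, MCM6 0.04, and for the difference between lines CDC20 0.01, TTK 0.05. With TMM-style scaling they were in LP-1 CDKN1B 0.01, CDC25B 0.02, and in U266 CCNA2 -0.04, CENPE -0.01, KIF11 -0.03, FOXM1 -0.05, STAG1 -0.05, CENPN -0.02, CDC27 -0.03, and for the difference between lines CCNB1 -0.08, BUB1 -0.10, CENPA -0.08, KIF20A 0.00, BIRC5 -0.05, CCNF -0.08, MAD2L1 -0.06. When 1 library was left out they ran, in LP-1 CCNB1 -0.25 to 0.03, CENPE -0.02 to 0.38, CENPF -0.05 to 0.39, TPX2 -0.02 to 0.07, RBL2 -0.19 to 0.07, CDKN1B -0.07 to 0.06, FZR1 -0.06 to 0.12, CDC25B -0.05 to 0.06, NCAPH -0.09 to 0.11, FEN1 -0.08 to 0.27, and in U266 CDK1 -0.06 to 0.04, CENPE -0.06 to 0.31, KIF20A -0.09 to 0.01, TPX2 -0.05 to 0.01, INCENP -0.02 to 0.01, CDCA8 -0.06 to 0.02, FZR1 -0.06 to 0.04, and for the difference between lines CCNB1 -0.09 to 0.19, CDC20 -0.12 to 0.04, BUB1 -0.02 to 0.10, TTK -0.05 to 0.07, CENPA -0.02 to 0.17, CENPE -0.29 to 0.12, TPX2 -0.09 to 0.00, BIRC5 -0.09 to 0.24, CCNF 0.00 to 0.14, MAD2L1 -0.11 to 0.25.

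NUSAP1 rests on 5 to 31 reads in U266 and 9 to 25 in LP-1, and PRC1 on 39 to 84 reads in U266, all below the filter on low values.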

Other observations

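Among genes that act before mitosis, those of DNA replication gave mostly lower calls in U266 and more higher than lower calls in LP-1. Of 32 DNA replication genes, 11 were higher and 5 lower with DHA in LP-1 (median log2 change 0.12), and 1 was higher and 19 lower in U266 (median -0.32), by limma adjusted over all genes, beside 20.0% higher and 20.2% lower of all genes in LP-1 and 21.1% and 19.6% in U266. The 5 lower calls in LP-1 are thus below the share of all genes. The difference between the lines was negative for 18 of the 32 and positive for 0, against 18.5% negative and 16.0% positive of all genes. CDC6, which loads the replicative helicase, had 27.83, 28.77 and 29.77 FPKM with DHA and 10.24, 9.71 and 10.26 FPKM with DMSO in LP-1 (1.43, SE 0.07, adjusted p = 0.0001). The helicase subunit MCM6 had 68.84, 71.07 and 72.44 FPKM with DHA and 32.27, 32.6 and 32.79 FPKM with DMSO in LP-1 (1.10, SE 0.07, adjusted p = 0.000194), and its U266 groups overlapped (-0.03, adjusted p = 0.665). In U266 the helicase subunit MCM4 had 36.84, 36.03 and 33.02 FPKM with DHA and 59.57, 59.13 and 61.28 FPKM with DMSO (-0.75, SE 0.05, adjusted p = 2.99e-06). PCNA, the sliding clamp of replication, in U266 had 151.88, 149.81 and 146.31 FPKM with DHA and 223.63, 228 and 228.61 FPKM with DMSO (-0.60, SE 0.04, adjusted p = 4.42e-06). Leaving out 1 DHA library in LP-1 left 7 higher calls, and 0 or 1 lower. In those fits 10.9% to 11.2% of all genes were higher and 12.3% to 12.7% lower.

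The list of CDK inhibitors and G1 cyclins gave more lower than higher calls in both lines. It mixes inhibitors of CDKs with cyclins and kinases. Its lower calls in LP-1 held inhibitors (CDKN1A, CDKN1C) as well as cyclins (CCNE1, CCNE2). Among the CDK inhibitors and G1 cyclins, 1 was higher and 6 lower of 11 in LP-1, and 2 were higher and 7 lower of 12 in U266, beside the same shares of all genes. CCNE1, the cyclin of S phase entry, had 1.74, 1.49 and 1.12 FPKM with DHA and 2.75, 3.07 and 3.37 FPKM with DMSO in LP-1 (-0.74, adjusted p = 0.00549). Its U266 levels were 4.82, 5.5 and 4.47 FPKM with DHA and 10.57, 9.95 and 9.71 FPKM with DMSO (-0.90, adjusted p = 1.98e-05). CCNE2 fell in both lines too (-0.47, adjusted p = 0.0177 in LP-1, or up to 0.0731 without 1 library, and -0.74, adjusted p = 3.16e-05 in U266). E2F1, counted in the DNA replication list, fell in both (-0.36, SE 0.09, in LP-1 and -0.35, SE 0.07, in U266, adjusted p = 0.0206 and 0.00241). Its LP-1 call was lost without any 1 DHA library (0.0756 to 0.0834) and with TMM-style scaling (0.0535). CDKN1A, the p21 inhibitor of CDKs, had 6.59, 6.12 and 6.95 FPKM with DHA and 10.63, 9.73 and 9.28 FPKM with DMSO in LP-1, and 35.18, 32.77 and 31.3 FPKM with DHA and 25.45, 24.09 and 25.16 FPKM with DMSO in U266. It thus fell in LP-1 (-0.53, adjusted p = 0.00454) and rose in U266 (0.40, adjusted p = 0.000335, and 0.0748 with TMM-style scaling). CDKN1C, the p57 inhibitor, fell in LP-1, with 10.12, 10.34 and 9.79 FPKM with DHA and 21.88, 19.88 and 33.15 FPKM with DMSO (-1.19, SE 0.18, adjusted p = 0.00374), and was at most 0.22 FPKM in U266.

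In U266 the log2 change of the 30 tested members had a Spearman correlation with exon length of -0.51, beside 0.08 over 10414 genes. That member value was -0.46 to -0.57 when 1 U266 DMSO library was left out. In LP-1 the same correlation was 0.28 over the 31 tested members and 0.26 over 12222 genes. For the LP-1 members it was 0.33, 0.4 and -0.03 without DMSO replicates 1, 2 and 3 in turn. These are descriptions across genes of the same 6 libraries of a line.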
